A study of Mus musculus with 8 samples.

Results

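The clustered protocadherin genes are 3 neighbouring gene families on mouse chromosome 18, named alpha (Pcdha), beta (Pcdhb) and gamma (Pcdhg). Members were the protein-coding genes of chromosome 18 in the GENCODE annotation of build mm9 whose symbols begin with Pcdha, Pcdhb or Pcdhg. This gave 24 of 22367 protein-coding genes, all on the plus strand: 2 alpha, 21 beta and 1 gamma gene record. The annotation joins nearly all of the alpha isoforms it lists in the record Pcdha11 and all of its gamma isoforms in the record Pcdhgc5. Isoforms are therefore named below by their GENCODE transcript names, such as Pcdha11-204. Isoforms without a protein-coding transcript in this annotation were not counted, so the set of alpha and gamma first exons may be incomplete.

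The 8 libraries of BRG1 ChIP-seq and input came from hearts of C57BL/6 mice aged 10 to 12 weeks, according to the sample records. The paper's methods name the primed wild-type mice C57BL/6J and give an older age range for infarction. Mice were primed with daily intraperitoneal thymosin β4 (Tβ4, 12 mg per kg) or the vehicle PBS over a week, had the left anterior descending artery permanently tied to cause myocardial infarction (MI), and were injected again on days 0 and 2 after surgery. PBS-primed and Tβ4-primed injured hearts, taken on day 4 after MI, each gave 2 BRG1 libraries and 2 input libraries. The values below come from 1 list of 524614 regions that the authors deposited for the Tβ4-primed group, named as BRG1 against input. Together these regions covered 25.8% of the genome. Within 500 bp of the start, a mean of 25.2% of bases lay inside regions over all protein-coding genes. Over chromosome 18 windows of that length the mean was 26.8%. A single overlap therefore does not set a start apart from other sites.

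The list gives positions only, and it names no replicate. Depth and replicate error are therefore unknown, no test between samples was possible, and all values describe 1 list. PBS-primed hearts were not analysed here. Chromatin came from whole digested hearts, so regions of different cell types cannot be told apart.

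BRG1 is a chromatin-remodelling ATPase, and clustered protocadherins are homophilic adhesion proteins that give neurons a surface identity. Each alpha and gamma variable exon has a promoter of its own and is spliced to constant exons that encode a shared cytoplasmic end, whereas a beta gene consists mainly of a single large exon. CTCF and cohesin fold the locus and take part in promoter choice in neurons, and the locus served here as a neuronal reference in heart tissue.

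At the annotated starts, BRG1 regions were found for a minority of members. Of the 24 members, 6 had at least 1 base of a region within 500 bp of the start, or 25% (95% Wilson interval 12.0 to 44.9%). The same was true of 43.9% of all protein-coding genes, 45.1% of the 517 protein-coding genes of chromosome 18, and 42.1% of 87507 windows of the same length (1001 bp) tiled along chromosome 18. The members' share was thus below all 3 backgrounds, while its interval reached the first and the last of them. The interval covers counting error only and treats neighbouring genes as independent.

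The starts of Pcdha11, Pcdhb6 and Pcdhb22 lay inside a region, and the whole window of 500 bp on each side was covered at each of them. The share of members with the start base inside a region, 3 of 24, compares with 24.2% of protein-coding genes. At the other 3 starts a region reached into the window from one side. It covered 32.4% of the window at Pcdhb8, 30.8% at Pcdhb11 and 2.70% at Pcdhb7. At least 50% of the window was covered at 3 members, against 23.5% of protein-coding genes.

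No member had the middle base of a region within 500 bp of its start, against 22.4% of protein-coding genes. The 6 overlaps were therefore made by the outer parts of regions whose middles lay farther away. At Pcdha11, for example, the region at chr18:37084680-37090889 was 6210 bp long, began upstream of the gene record and ended inside the first exon. The region over the Pcdhb22 start, chr18:37674630-37679729, was 5100 bp long and also covered part of the gene before it, Pcdhb21. At Pcdhb6 the region at chr18:37491540-37494719 was 3180 bp long and ended within the gene.

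Within 5 kb of the start, 20 of the 24 members had a region, or 83.3% (Wilson interval 64.1 to 93.3%). This was near the 90.5% of all protein-coding genes, the 88.6% of those on chromosome 18 and the 88.1% of 8756 chromosome 18 windows of that length. The mean covered share of these windows was 27.1% over members and 26.7% over protein-coding genes, with medians of 27% and 22.2%. In these values the members did not stand apart from other genes as a group, but they had fewer regions, with a mean of 1.75 per window against 2.66 for protein-coding genes. With each region cut to a short piece at its middle, the mean covered shares were 2.94% over members and 4.80% over protein-coding genes. Windows of neighbouring members overlap, so they are not independent.

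The members differed widely from one another. The highest covered shares within 5 kb belonged to Pcdhb21 with 75.1%, Pcdha11 with 70.3%, Pcdhb11 with 67.8% and Pcdhb2 with 66.7%. Pcdhb21 and Pcdhb2 reached these values with no region within 500 bp of the start. No region lay within 5 kb of the starts of Pcdhb13, Pcdhb14, Pcdhb15 and Pcdhb18. Of the other alpha and gamma records, Pcdha3 had 32.4% and Pcdhgc5 7.40% of its window covered.

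Several beta genes with no region in the gene body lay together in long gaps. Pcdhb12, Pcdhb13 and Pcdhb14 fell inside a gap of 18990 bp between regions (chr18:37594080-37613069), and Pcdhb17 and Pcdhb18 inside a gap of 18270 bp (chr18:37640700-37658969). The gene Pcdhb15 lay in a gap of 17100 bp. The median gap between regions on chromosome 18 was 1590 bp. Gaps of 10 kb or more made up 14.1% of the 163 gaps between regions of the locus and 9.64% of those of the whole chromosome.

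**Figure D1:**
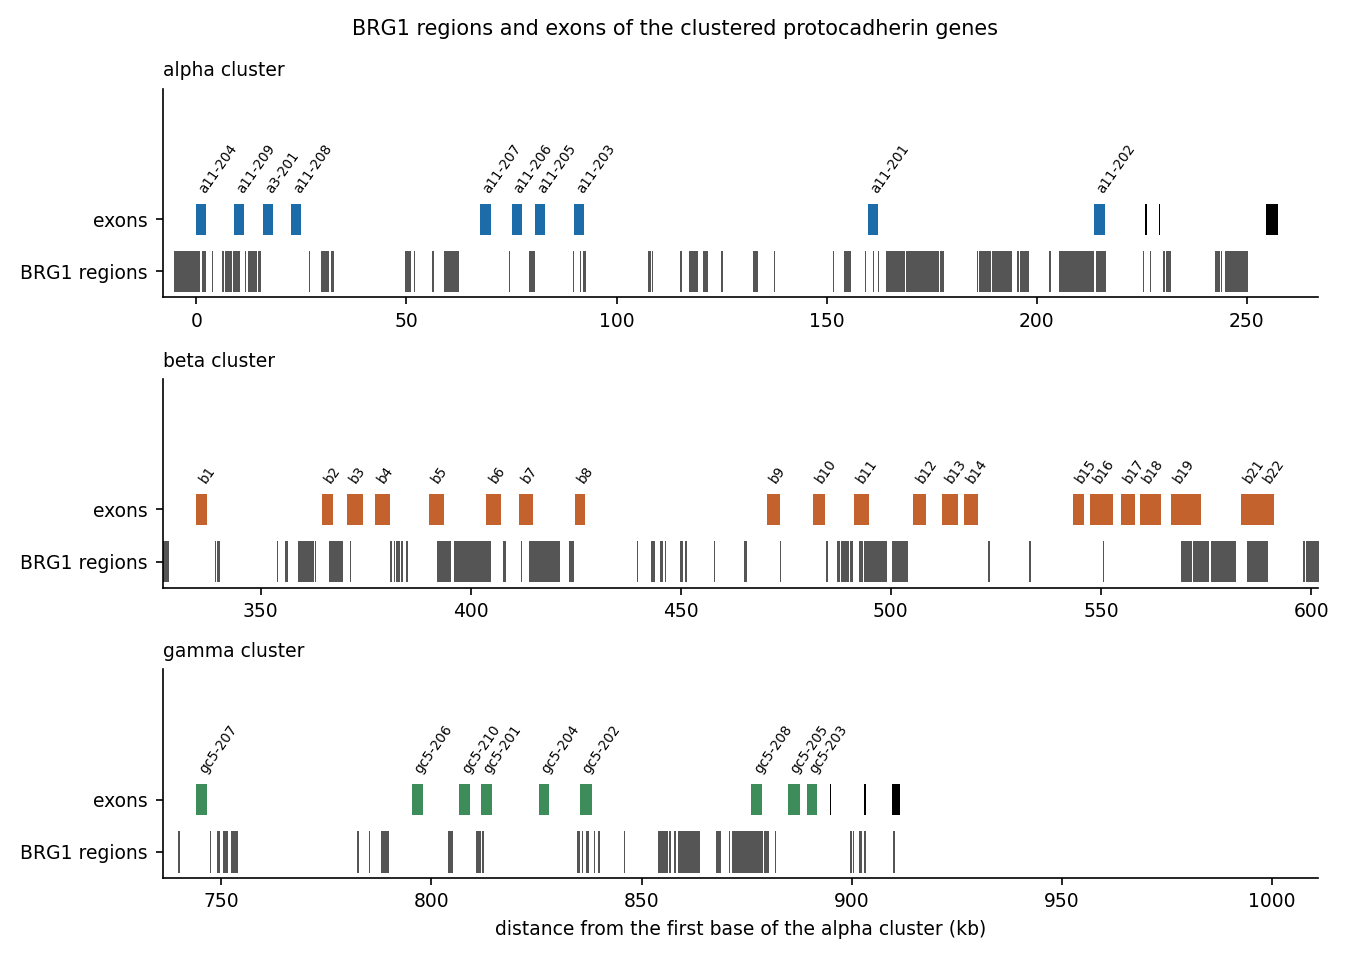
BRG1 regions (grey) and exons of the alpha, beta and gamma clusters, in kb from the first base of the alpha cluster, at the same scale. Coloured boxes are alpha and gamma first exons or beta genes, black boxes are constant exons, and names omit the prefix Pcdh; the genes Pcdhb12 to Pcdhb14 sit in a gap of 18990 bp.

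Taken by first exon instead of gene record, a choice made after the values were seen, the 3 clusters had 40 separate annotated starts: 10 alpha, 21 beta and 9 gamma. A region lay within 500 bp of 14 of these, or 35.0% (Wilson interval 22.1 to 50.5%), and over the start base of 8. For all protein-coding genes the shares were 43.9% and 24.2%. By cluster, a region lay within 500 bp of 6 of 10 alpha starts (Wilson interval 31.3 to 83.2%), 5 of 21 beta starts (10.6 to 45.1%) and 3 of 9 gamma starts (12.1 to 64.6%), and each interval held the share of all genes. The median distance to the nearest region was 195 bp in alpha, 2319 bp in beta and 2744 bp in gamma, against 738 bp for protein-coding genes. By median, alpha starts thus lay closer to regions than gene starts in general, and beta and gamma starts farther. The middle base of a region lay within 500 bp of 4 of the 40 starts, 2 in alpha and 2 in gamma, against 22.4% of protein-coding genes. The median covered share within 5 kb was 15.3% over the 40 starts, below the 22.2% of protein-coding genes, whereas that of the 24 records lay above it, so the direction depends on how starts are counted.

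In the alpha cluster, the first exons at its upstream and downstream ends were the most covered. Within 5 kb of the start, regions covered 70.3% at Pcdha11-204, 58.5% at Pcdha11-209 and 74.0% at Pcdha11-202, the last variable exon before the constant exons. The exons between them had lower values, from 0% at Pcdha11-207 and 2.70% at Pcdha11-208 to 32.4% at Pcdha3-201. A region began or ended close to several starts: at Pcdha11-205 the region of 1500 bp at chr18:37169040-37170539 ended just inside the first exon.

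The Pcdha11-202 exon lay at the edge of the longest region of the locus. This region, chr18:37295220-37303649, was 8430 bp long and covered the start base of the exon, and a second region of 2370 bp covered most of the remaining exon, so that 88.3% of the exon was covered. The stretch of 53833 bp between the starts of Pcdha11-201 and Pcdha11-202 held 13 regions and was 60.5% covered. The stretch of 69906 bp before it, between Pcdha11-203 and Pcdha11-201, also held 13 regions but was 14.2% covered. The same number of regions thus covered very different shares, because those of the later stretch were longer.

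In the gamma cluster, 1 exon stood apart. The first exon of Pcdhgc5-208 lay wholly inside a region of 7440 bp (chr18:37961460-37968899), and 84.3% of the 5 kb on each side of its start was covered, the highest value of the 40 first exons. At Pcdhgc5-202 a region of 870 bp lay over the start, and 66.5% of the 500 bp window and 26.4% of the 5 kb window were covered. At Pcdhgc5-201, 2 regions covered 73.0% and 15.6% of these windows. No region lay within 5 kb of the starts of Pcdhgc5-206, Pcdhgc5-204 and Pcdhgc5-203. Pcdhgc5-205, the next annotated first exon downstream of Pcdhgc5-208, had 6.97%.

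The C-type isoforms, a subgroup of alpha and gamma protocadherins whose promoters are used differently from the rest in neurons, could not be compared as a group. Pcdhac1, Pcdhac2, Pcdhgc3 and Pcdhgc4 have no symbol of their own in the annotation used here, and Pcdhgc5 names the record of the whole gamma cluster. Where they are annotated, their values stand among those of the transcripts above, unnamed.

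**Figure D2:**
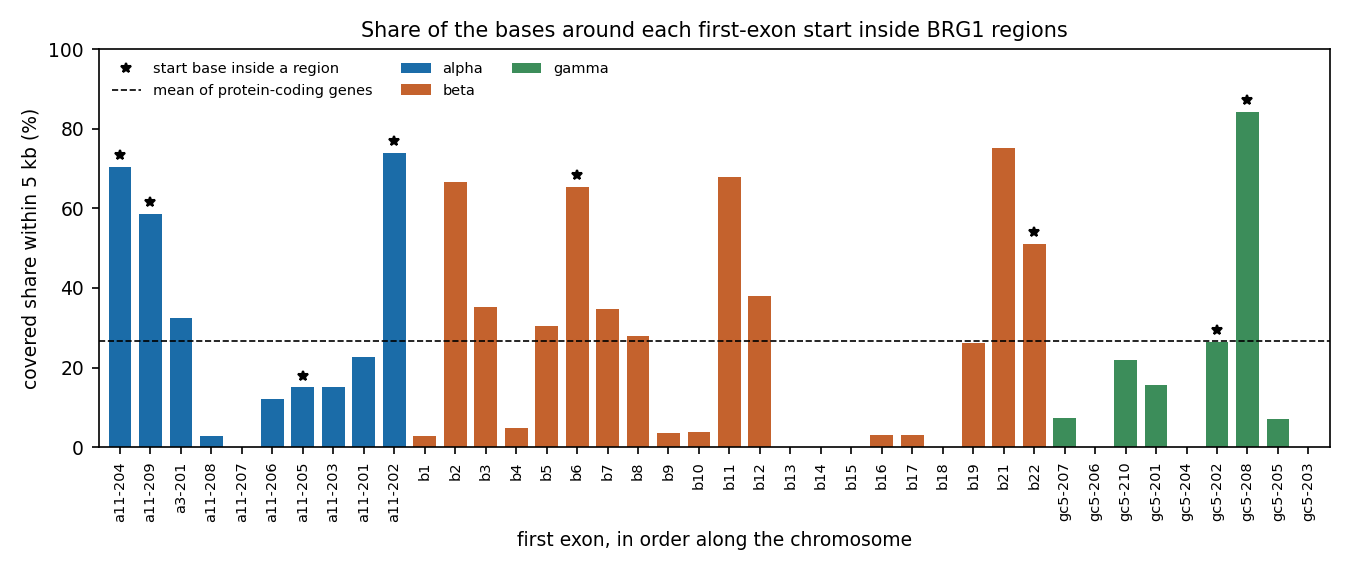
Share of bases within 5 kb of each of the 40 first-exon starts that lies inside BRG1 regions (y axis, %), in order along the chromosome and coloured by cluster. Stars mark the 8 starts whose first base is inside a region, the dashed line is the mean of all protein-coding genes (26.7%), and Pcdhgc5-208 has the highest bar, at 84.3%.

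Coverage was unevenly spread around the first-exon starts. In the 2.5 kb before the start, 30.2% of bases lay inside regions, and in the 2.5 kb after it 17.3%. For all protein-coding genes the values were 26.8% and 26.6%. The lowest bin of 500 bp, from 1000 to 1500 bp into the gene, was 14.0% covered over the 40 first exons, against 26.9% over protein-coding genes.

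The mean coverage was lower behind the start in each cluster, from different levels. It went from 45.5% before to 25.5% after the start in alpha, from 25.6% to 13% in beta and from 23.8% to 18.2% in gamma. Of the 40 first exons, 16 were more covered before the start, 5 were more covered after it, and 19 were equal, most of these with no covered base on either side. In gamma only 2 of 9 were more covered before and 1 after, so its difference rests on very few exons. Among protein-coding genes, 37.2% were more covered before and 37.3% after the start. In alpha, the bin from 500 to 1000 bp before the start was 58.1% covered, against 27.1% over protein-coding genes. This was the highest of the alpha bins. A region touched this bin at 7 of the 10 alpha starts and at 8416 of 22367 protein-coding genes. Within 5 kb of the start, some windows of each cluster reach the exon before, and a few long regions carry much of each value. The profile therefore describes these 40 sites only.

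**Figure D3:**
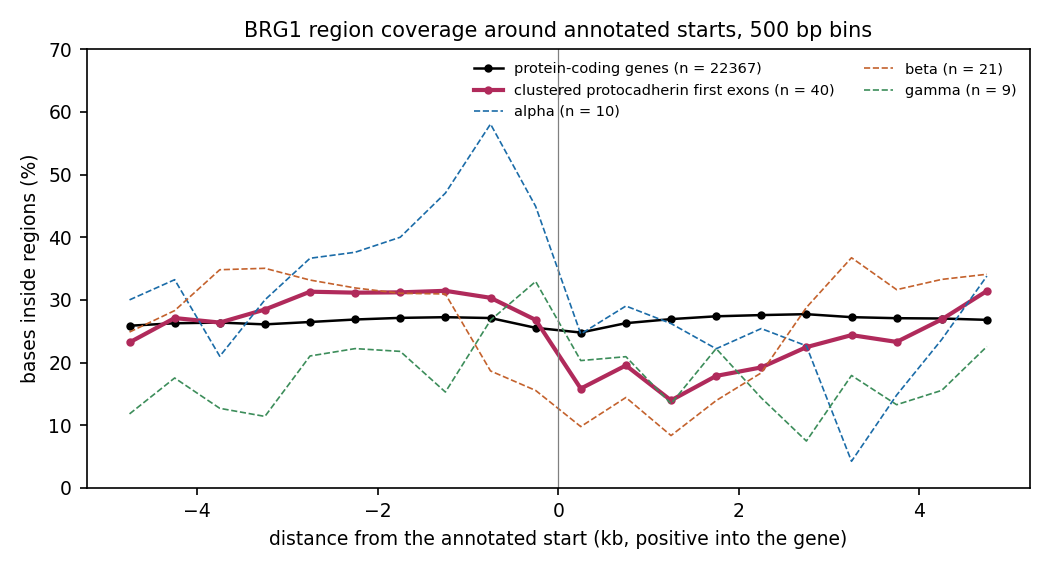
Percent of bases inside BRG1 regions in bins of 500 bp around annotated starts (x axis in kb, positive into the gene). The 40 clustered protocadherin first exons (thick line) fall to 14.0% at 1000 to 1500 bp after the start, while all 22367 protein-coding genes (black) lie between 24.8% and 27.7% throughout; dashed lines give each cluster.

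The annotated first exons and beta genes were somewhat less covered than the rest of their spans. In alpha, first exons were 26% covered and the rest of the span, outside annotated exons, 29.2%. Any alpha or gamma variable exon missing from the annotation would fall in this rest. The beta genes were 22.3% covered and the bases between them 29.5%. In gamma the 2 values were 17.4% and 20.1%, so the direction was shared by the 3 clusters and the difference was largest in beta.

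As 1 set, the annotated alpha and gamma variable exons and the beta genes were 22.1% covered, and 20 of the 40 had at least 1 region. Of 6669 exons of protein-coding genes of the same length range, 2382 to 7131 bp, 62.9% had at least 1 region and 27.2% of bases were covered. Among the beta genes alone, 11 of 21 had a region in the gene body, against 71.6% of 3587 protein-coding genes of like length. This comparison with exons of like length was chosen after the profile had been seen.

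The constant exons, which encode the shared cytoplasmic end of the proteins, were too few and too short to compare. None of the 3 alpha constant exons was touched by a region, although 4 regions lay within 5 kb of the first of them. In gamma, 2 of the 3 were touched, and 22.1% of their bases were covered. These exons add up to 2860 bp in alpha and 2119 bp in gamma, so a single region decides such values.

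Over the whole spans, from the first to the last base of the member genes, the clusters lay within the range of chromosome 18. The alpha span (chr18:37089939-37347311) had 53 regions and 28.6% of its bases covered, the 63.7th percentile of 8696 windows of the same length moved along the chromosome in steps of 10 kb. The beta span (chr18:37424652-37681073) had 44 regions and 27.4% covered, the 55.1st percentile. The gamma span (chr18:37833989-38001527) had 30 regions and 19.7% covered, the 14.9th percentile of 8718 windows, or the 23.1st with 20 kb added on each side. None of the 3 fell outside the middle 95% of windows, which ran from 16.4 to 37.9% for alpha and beta and from 13.9 to 40.9% for gamma. The order of beta and gamma depended on region length. With each region cut to a short piece at its middle, the covered percentiles were 54.0 in alpha, 21.9 in beta and 32.6 in gamma.

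Region counts ranked differently from covered shares in beta. The 44 beta regions stood at the 21.0th percentile of counts, those of alpha at the 56.9th and those of gamma at the 31.4th. With 20 kb added on each side, the count percentiles were 17.5 in beta, 37.5 in alpha and 43.2 in gamma, so alpha and gamma changed order. The median region length was 600 bp in beta, 720 bp in alpha, 600 bp in gamma and 630 bp on the chromosome, so beta regions were not longer in general. A few long regions carried the beta value instead: 11 of the 44 were 3 kb or longer and held 72.4% of the covered bases, against 47.9% in alpha and 38.7% in gamma. On chromosome 18 as a whole 12.1% of 17642 regions had that length.

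The whole locus of 911589 bp, spacers included, had 164 regions and was 24.1% covered, at the 15.4th percentile. The spacer between alpha and beta was 15.2% covered and that between beta and gamma 20.5%, at the 11.7th and 19.3rd percentiles. The longest gaps of the locus were 28230 bp inside the gamma record (chr18:37843980-37872209) and 26190 bp in the spacer between beta and gamma. The lower value of the whole locus thus came from the gamma span and the spacers, not from the alpha and beta spans.

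**Figure D4:**
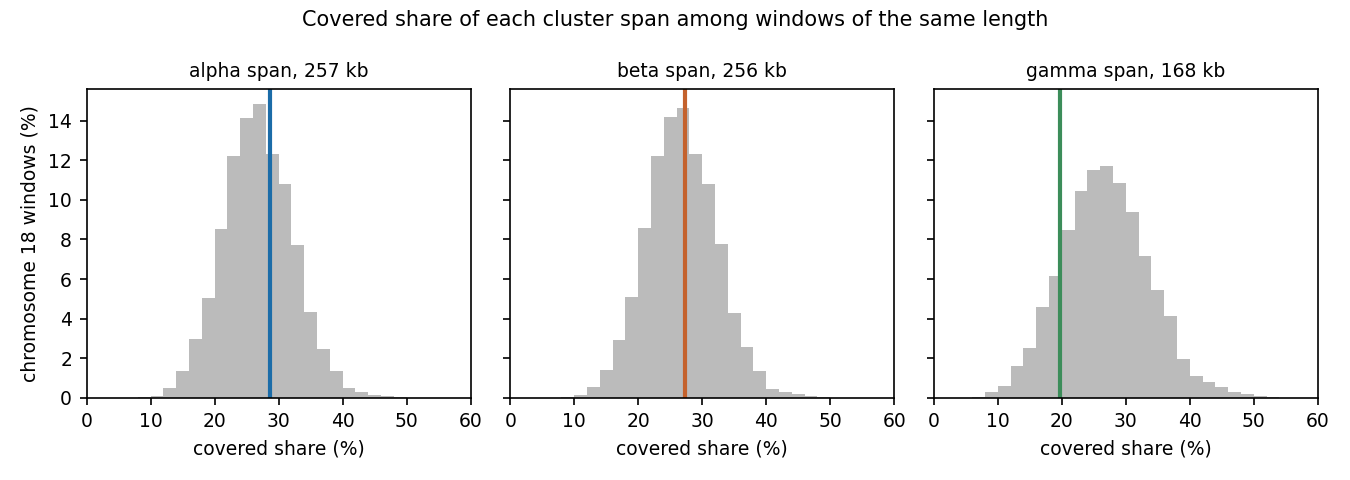
Covered share of the alpha, beta and gamma spans (coloured lines) among chromosome 18 windows of the same length (grey, y axis in % of windows). Alpha and beta, at 28.6% and 27.4%, lie near the middle, and gamma, at 19.7%, lies in the lower part of the distribution.

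Base composition was only loosely related to coverage. The GC share within 500 bp of the start had a median of 44.3% over the 40 first exons, from 37.7% to 67.3%, against 54.7% over protein-coding genes. The observed over expected CpG ratio had medians of 0.706 in alpha, 0.412 in beta and 0.658 in gamma, against 0.549 over protein-coding genes. Beta starts were thus the poorest in CpG. Across the 40 first exons, GC share and covered share within 5 kb had a Pearson r of 0.21 and a Spearman rho of -0.05. With coverage taken within 500 bp as well, they were 0.27 and 0.13. Across 8756 chromosome 18 windows the Pearson r was -0.04. These are descriptions of neighbouring sites in 1 list, not of independent samples.

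The highest GC shares nevertheless met the highest coverage at 2 starts. Pcdha11-202 had the highest GC share, 67.3%, and Pcdhgc5-208 had 58.4%, and within 5 kb these were the most covered first exons of their clusters. Pcdha11-201, however, had a GC share of 57.4% and no region within 500 bp. The letters CGCT, the core of a conserved protocadherin promoter element, were present on either strand in the 250 bp before 39 of 40 first-exon starts and before 60.8% of protein-coding starts. The only exception was Pcdhgc5-202, whose start lay inside a region, and Pcdhgc5-208 had the most matches, 7. A match of 4 letters is a description and not a binding site.

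Repeated sequence can hide reads, because the authors' mapping dropped reads with more than 2 alignments. The share of 50-base words that occur more than 2 times in the genome was 15% in the alpha span, 10.5% in the beta span and 2.0% in the gamma span, against 7.60% on chromosome 18. Within the first exons the median was 9.23% in alpha and 0% in gamma, and within the beta genes it was 1.54%. The least covered cluster, gamma, thus had the fewest repeated words. The poorly covered spacers went the other way, with 12% between alpha and beta and 22.1% between beta and gamma. Words of other lengths and near matches were not counted, and the part of repeats in the gaps was not tested.

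Genes inside the locus that are not members were too few to compare with the members. Of 4 such genes, 2 had a region within 500 bp of the start, against 43.9% of protein-coding genes, and none had its start base in a region. The 2 were 3222401L13Rik, 25.2% covered, and Gm10545, 3.70% covered. Slc25a2, a mitochondrial carrier gene, had no region within 5 kb. Taf7, which encodes a subunit of the general transcription factor TFIID, had none within 500 bp and 18.6% of its 5 kb window covered.

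Flanking genes within 500 kb had regions at their starts about as often as genes in general. Of 30 such genes, 13 had a region within 500 bp of the start, and 27 within 5 kb, against 43.9% and 90.5% of protein-coding genes. The window of 500 bp on each side was wholly covered at Dnd1 and Tmco6, 93.3% covered at Slc35a4, 84.9% at Pfdn1, a prefoldin subunit gene, 72.0% at Apbb3 and 66.9% at Cd14, the endotoxin co-receptor gene of myeloid cells. Lower values were found at Diap1, an actin-nucleating formin gene (28.1%), Hars and its neighbour Hars2, histidyl-tRNA synthetase genes (27% each), Sra1 (23.1%), Gm10268 (16.4%), Arap3 (12.9%) and E230025N22Rik (4.10%). Hdac3, a histone deacetylase gene, and Hbegf, a growth factor gene, had no region in this window. The median covered share within 5 kb was 33.9% over flanking genes, 27% over member records and 15.3% over the 40 first exons.

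The protocadherin genes outside the clusters had a mean covered share within 500 bp of 23.3%, near the 25.2% of all protein-coding genes and above the 15.2% of members. Of 13 genes, 4 had a region within 500 bp, against 43.9% of protein-coding genes: Pcdh7 and Cdhr1, with the whole window covered, Pcdh19, an epilepsy gene, with 75.7%, and Pcdh10 with 27%. None lay within 5 kb of Pcdh1, Pcdh17 or Pcdh18. Pcdh12, expressed in endothelium, had no region within 500 bp and 39.6% of its 5 kb window covered. Pcdh1 and Pcdh12 also count among the flanking genes.

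Genes that encode regulators of the locus or partners of its proteins had regions within 500 bp of their starts in 8 of 16 cases and within 5 kb in all 16, near the 43.9% and 90.5% of all protein-coding genes. The window within 500 bp was wholly covered at Smc3, a cohesin subunit gene, at Wapal, whose product releases cohesin, and at Wasf1, of the WAVE complex that binds protocadherin cytoplasmic tails, and it was 88.8% covered at Ctcf. Fyn, a tyrosine kinase gene, had 39.9%, Smchd1, of a chromatin protein that silences the locus, 27%, Ptk2, the focal adhesion kinase gene, 9.89%, and Nipbl, the cohesin loader gene, 9.69%. No region lay within 500 bp of Rad21, Smc1a, Stag1 and Stag2, which encode cohesin subunits, or of Rest, a repressor of neuronal genes.

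Other gene clusters give a scale for these spans. The Hoxd span was 48.5% covered, at the 98.7th percentile of windows of its own chromosome, the Hoxc span 39.99%, the Hoxa span 36.9% and the Hoxb span 25.5%. The Hist1 histone cluster was 29.6% covered. The alpha and beta spans thus lay between Hoxb and Hist1, and the gamma span below all 5 of these clusters. Of 1113 olfactory receptor genes, which like protocadherins are used in neurons, 42.9% had a region within 500 bp of the start, near the 43.9% of all protein-coding genes.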

How the data were processed

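Each priming group, PBS or Tβ4, had BRG1 and input libraries from hearts taken after MI. According to the submitters' processing notes and methods, the authors mapped reads with Bowtie 1.0.0 to mm9, keeping reads with at most 2 alignments, and called regions with the bdgcomp function of MACS2 2.0.10. The deposited list gives region starts and ends in bp. The list's name has the form of another MACS2 comparison, so the exact call is unclear. Whether and how the duplicates were combined is not given.

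Starts were the 5′ ends of gene records. Regions were counted with at least 1 bp of overlap and covered shares computed in Python 3.11.15 (numba 0.67.0, pysam 0.24.0, numpy 2.4.6, scipy 1.17.1, pandas 2.3.3), and figures drawn with matplotlib 3.10.9. The counting was tested on simulated regions against bedtools 2.31.1. Windows with over 10% unsequenced bases were left out. Percentiles count ties by their middle rank. Repeats were counted as 50-base words, every 100 bp outside the locus, because the genome used here carries no soft-masking.

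Named genes were the C-type members, members with a region within 500 bp, the 2 most and 2 least covered per cluster, those with no region within 5 kb, and, from other lists, genes with a region within 500 bp and at most 5 without. Single first exons, Pcdhb2 and genes in long gaps were named after their values were seen. C-type members have no records of single isoforms, so none could be named as such. Members and lists were chosen with earlier results of these data known.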

Additional observations from a re-analysis of the deposited data

How the results depend on the processing

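No paired analysis was possible because the list does not separate the duplicates and no result came from a test; for the same reason no duplicate could be left out. Of 109 alternative values, 90 stayed inside the 95% Wilson interval of the main value, or within 1.5-fold for counts, and 19 lay beyond. For the interval, n was the members, the kb of a span, or, for percentiles, the windows that fit side by side on chromosome 18. Mean covered shares and percentiles are not counts out of n, so these limits are a convention. With 24 members the interval is wide, and a value inside it can still differ clearly. Reducing each region to its middle base for counts and to a short middle piece for covered shares, which shortens every region by construction, left 0 members with a region within 500 bp, mean covered shares of 0.524% within 500 bp and 2.94% within 5 kb, below the 4.68% and 4.80% of protein-coding genes, and span shares of 4.04% in alpha, 3.43% in beta and 3.58% in gamma, with percentiles of 54.0, 21.9 and 32.6. Requiring 50% of the 500 bp window to be covered left 3 of 24 members (23.5% of protein-coding genes), and requiring 25% of the 5 kb window left 13 (45.5%), a share above that of all genes. A window of 2.5 kb on each side took in 13 members, against 76.1% of protein-coding genes. Joining regions within 500 bp moved the count percentile to 48.4 in alpha and 38.0 in gamma. Adding 20 kb on each side moved the covered percentile to 70.8 in alpha, 46.9 in beta and 23.1 in gamma, and the count percentile to 37.5 in alpha and 43.2 in gamma. The cause of the changed percentiles was not tested. Start codons, any transcript start, and windows of 250 bp or 1 kb moved no value beyond these limits. Nor did leaving out regions shorter than 300 bp, or windows of all autosomes or with any unsequenced share. First exons and beta genes alone, which were added after seeing the data, also moved none. Leaving out regions longer than 100 kb could move none, because the longest region of chromosome 18 was 22260 bp. Its values still count among the 90. The depth of the libraries is unknown, so an uncovered start may be a site below the threshold of the list.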

Other observations

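Non-coding records inside the locus were partly covered. The start of the lincRNA gene Gm10544, between the second and the last alpha constant exon, lay inside a region that covered the whole window of 500 bp on each side, and 60.5% of its 5 kb window was covered. Pcdhb20, annotated as a pseudogene in the release used here and therefore not a member, had 85.6% of its body and 91.5% of its 5 kb window covered, more than any member. The lincRNA gene Gm16882 in the gamma cluster and the small RNA gene SNORA40 had no region within 500 bp of their starts.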
